A study of Mus musculus with 16 samples.

Results

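Regions that gained acetylation of histone H3 at lysine 27 (H3K27ac) from multipotent progenitors (MPP) to common dendritic cell progenitors (CDP), and gained it again on the way to a mature dendritic cell, were followed through the mouse dendritic cell lineage. There were 1394 such regions among the 59626 autosomal regions listed as differing between CDP and MPP. A region was taken when its mean CDP signal was at least 100 and at least 2 times the MPP mean, and when the row of a later list with most overlapping bases had a mature signal at least 2 times that of CDP, each ratio after adding 1 to the means. The rule was met for classical dendritic cells (cDC) alone in 364 regions, for plasmacytoid dendritic cells (pDC) alone in 764, and for both in 266. These sets are called the cDC branch, the pDC branch and the shared branch. The regions were chosen by measured signals, those of CDP against MPP, cDC against CDP and pDC against CDP, so these ratios are given as a description and without a test.

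The libraries came from cells of the mouse strain C57BL/6, labelled cDC, pDC, CDP or MPP, with 2 H3K27ac libraries per cell type and no treatment or genotype given. Per the labels, sorted cells were cross-linked, and chromatin fragments bound to acetylated histone were pulled down with an antibody and sequenced. The 2 libraries of a cell type carry no replicate number in the lists and are called first-listed and second-listed, and nothing in the labels says whether they came from separate animals or cultures. Any spread between them may therefore be technical. Signals are the authors' scaled whole numbers, summed over a region and scaled apart in each list, which confines each comparison to 1 list and leaves the depth of reading unknown. Positions are in the mouse build mm9, and since no annotation of that build was used here, regions are named by position and not by gene.

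H3K27ac marks promoters and enhancers in use, and is placed by the acetyltransferases p300 and CBP. Dendritic cells arise in the bone marrow from MPP through CDP, which have largely given up other blood fates. cDC take up antigen and present it to T cells, while pDC sense viral nucleic acids and release type I interferon. Enhancers of such mature functions can be acetylated at a low level in a progenitor before the gene is fully in use.

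Of all autosomal regions of the first list, 9.20% met the condition on CDP against MPP, which is 5485 regions. Of these, 630 had a cDC signal at least 2 times that of CDP, a share of 11.5%, and 1030 had a pDC signal at least 2 times that of CDP, a share of 18.8%. Over all autosomal rows of the later lists these shares were 11.9% for cDC and 26.6% for pDC. The later lists share the CDP libraries with the first list, and nothing is read from these shares. The 4091 regions gained in CDP and not taken had median ratios of 0.56 for cDC to CDP and 0.37 for pDC to CDP. At the edges of the rule the ratio of CDP to MPP was 2.00 just inside and 1.999 just outside. The mean CDP signal was 100 inside and 99.5 outside, and the larger mature ratio was 2.003 inside and 1.999 outside.

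The size of the branches moved with single libraries, and that of the cDC branch also with scaling. Of the cDC libraries, the second-listed gave the higher signal in 94.7% of the 1394 regions, and the median log2 gap was 0.66. Without the first-listed cDC library the rule gave 577 regions in the cDC branch and 410 in the shared branch, and without the second-listed one it gave 189 and 132. The pDC branch held between 568 and 1012 regions when any one of the 8 libraries was left out. Of the MPP libraries, the second-listed gave the lower signal in 81.0% of the regions, against 75.7% of all autosomal regions of the list, and its median log2 gap to the first was -0.61. With the autosomal totals of the 4 libraries of each list made equal, the cDC branch held 563 regions, the pDC branch 672 and the shared branch 268. Equal totals moved the median log2 ratio over all rows for CDP to MPP to 0.017 (deposited -0.12), that for cDC to CDP to -0.093 (deposited -0.17) and that for pDC to CDP to -0.26 (deposited 0.040).

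At the first step the median gain was somewhat larger in the cDC branch than in the pDC branch, a difference not tested because the rule used these values. In the cDC branch the median signals were 262.5 and 338.5 in the first-listed and second-listed CDP libraries, against 103 and 63 in MPP. For the pDC branch they were 308 and 389.5 in CDP against 136.5 and 88.5 in MPP. In the shared branch they were 247.5 and 350 in CDP against 112.5 and 65 in MPP. The median ratio of CDP to MPP was thus 3.49 in the cDC branch, 2.87 in the pDC branch, 3.24 in the shared branch and 2.85 in the regions gained and not taken. Both MPP libraries were above 0 in nearly all regions: in 27 of the 1394 regions, or 1.94%, 1 MPP library was listed at 0, against 1.32% of the regions gained and not taken. In none of the 1394 were both at 0. A mean MPP signal under 10 was seen in 28 regions, or 2.01%, against 1.61% of the regions gained and not taken.

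At the second step the ratios come from lists that were scaled apart, so those for cDC and for pDC are given side by side and not ranked. In the cDC branch the covering rows gave 1635 and 2436.5 as medians in cDC, against 725 and 815 in CDP, and the median ratio was 2.42. For the pDC branch the medians were 2682 and 3168.5 in pDC against 676.5 and 793 in CDP, and the median ratio was 3.22. In the shared branch the median ratio was 2.57 for cDC to CDP and 3.81 for pDC to CDP. Equal totals were also applied with the regions of each branch held fixed. The median on the log2 scale was then 1.35 for cDC to CDP in the cDC branch (deposited 1.28). For pDC to CDP in the pDC branch it was 1.39 (deposited 1.68). In the shared branch it was then 1.42 for cDC to CDP (deposited 1.36) and 1.63 for pDC to CDP (deposited 1.93).

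**Figure D1:**
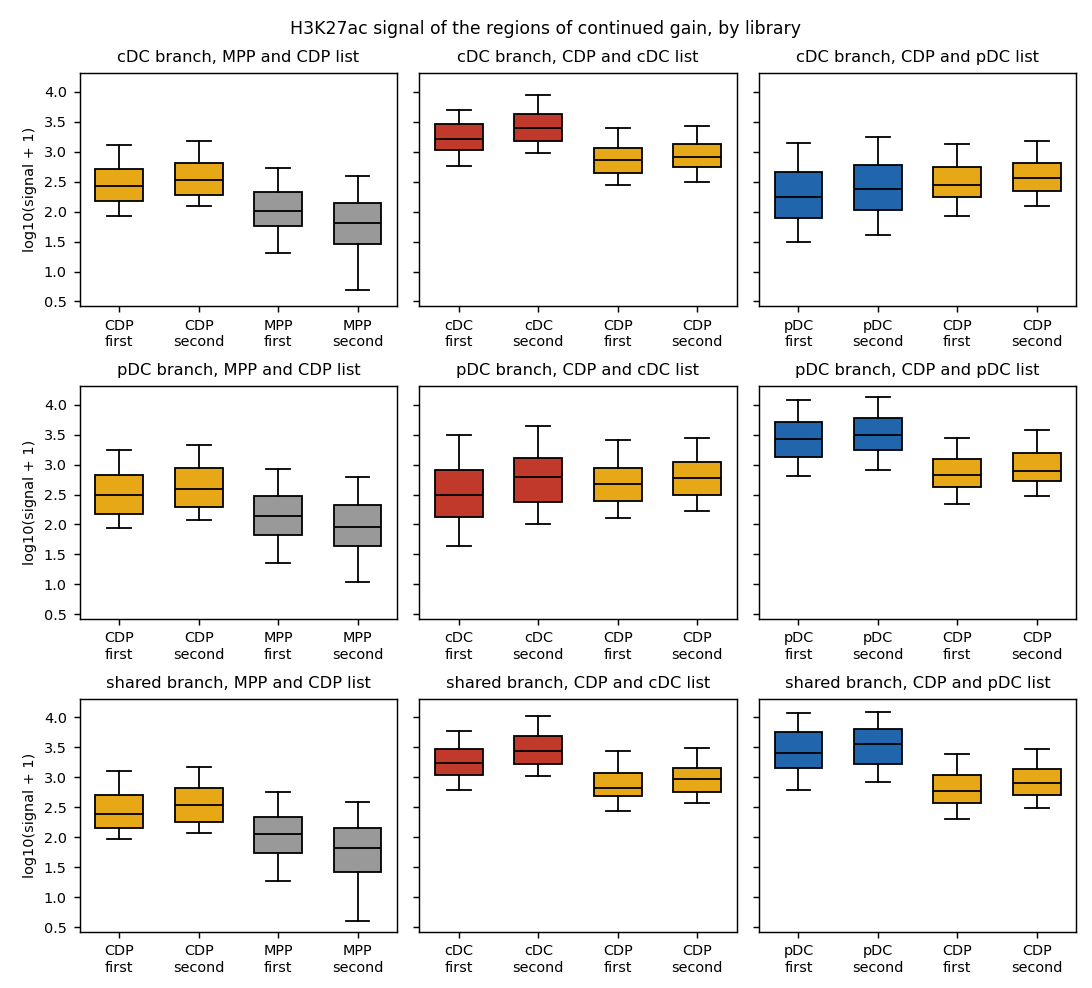
Boxplots of log10(signal + 1) over the regions of each branch (rows), for the 2 libraries of each cell type in each list (columns). Boxes span the middle of the regions with the median as a line, and whiskers run to the 5th and 95th percentiles. The medians of CDP lie above those of MPP in all branches, those of cDC above CDP in the cDC and shared branches, and those of pDC above CDP in the pDC and shared branches.

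Both libraries of the higher cell type lay above both libraries of the lower one at each step of the branch in 345 of 364 regions of the cDC branch (94.8%), 743 of 764 of the pDC branch and 246 of 266 of the shared branch. Over all autosomal regions, both CDP libraries lay above both MPP libraries in 26.8%, both cDC above both CDP in 22.0%, and both pDC above both CDP in 39.8%. The rule asks for ratios of at least 2, so a higher share follows from it. Between the MPP libraries the spread was large, with a median SD of 0.50 on the log2 scale over the 1394 regions. For CDP in the same list it was 0.33, and in the later lists it was 0.47 for cDC and 0.19 for pDC.

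The mature cell type outside the branch did not follow one course. In the cDC branch the pDC signal was below that of CDP in 246 regions, a share of 67.6% against 49.9% of all autosomal rows. It was between 1 and 2 times CDP in 116, and the other 2 regions had no covering row in the CDP and pDC list. In 127 regions, a share of 34.9%, pDC were at most 0.5 times CDP, against 22.0% of all autosomal rows of that list. Both pDC libraries lay below both CDP libraries in 187 regions of the cDC branch, a share of 51.4% against 38.0% of all autosomal rows. Among regions of the pDC branch the cDC signal was below that of CDP in 433, a share of 56.7% against 57.2% of all autosomal rows, and between 1 and 2 times CDP in 331. Both cDC libraries lay below both CDP libraries in 253, a share of 33.1% against 36.2%. The cDC signal was at most 0.5 times CDP in 149 regions, a share of 19.5%, against 22.8% of all autosomal rows of the CDP and cDC list. Regions with a later gain in the other cell type had been placed in the shared branch. All autosomal rows still include such gains, 26.6% of them for pDC and 11.9% for cDC. By itself the rule would thus raise the shares below CDP in both branches, yet those of the pDC branch were not above all rows. Nothing is read from the distance of these shares to all rows. The median log2 gap of the second-listed over the first-listed cDC library was 0.77 for the pDC branch, and the part of this gap in the cDC ratios was not tested.

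**Figure D2:**
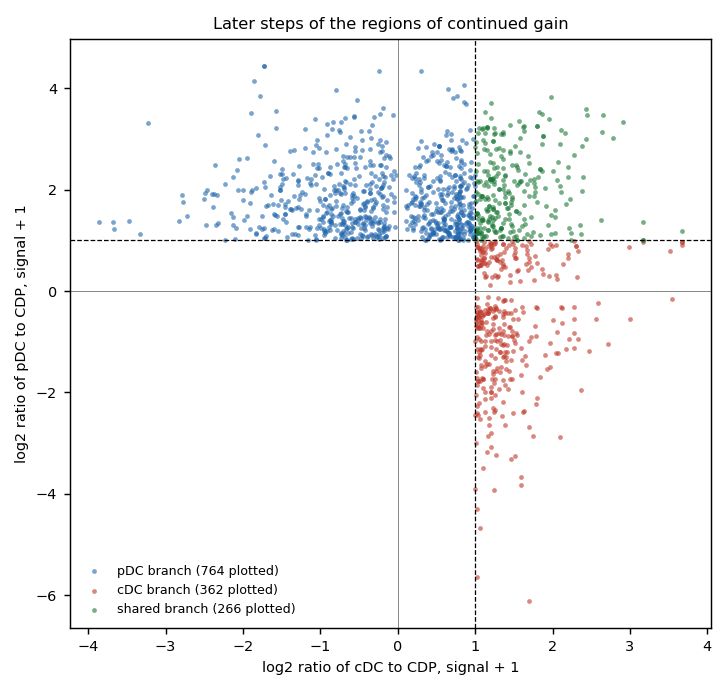
Each point is a region of continued gain, placed by its log2 ratio of cDC to CDP (horizontal) and of pDC to CDP (vertical), both of signal + 1. Dashed lines mark a ratio of 2, and 362 of the 364 regions of the cDC branch have a row in both lists. Points of the pDC branch lie on both sides of an equal cDC and CDP signal, and 246 points of the cDC branch lie below an equal pDC and CDP signal.

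The listed stretch was wider in the list of the branch's mature cell type than in the MPP and CDP list. Regions of the cDC branch had a median length of 700 bp, and their covering rows in the CDP and cDC list a median of 2350 bp. Regions of the pDC branch had a median length of 800 bp, and their covering rows in the CDP and pDC list 2450 bp. In the shared branch the region had a median of 750 bp and the covering rows 2550 bp in each later list. In the list of the mature cell type outside the branch the covering rows had a median of 750 bp in pDC for the cDC branch and 1150 bp in cDC for the pDC branch, against 600 bp and 500 bp over all autosomal rows of those lists. The regions gained and not taken had a median length of 800 bp, and covering rows of 1100 bp with cDC and 850 bp with pDC.

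For scale, all autosomal rows with cDC at least 2 times CDP had a median length of 700 bp, and those with pDC at least 2 times CDP 950 bp. Covering rows were picked by most overlapping bases, which favours long rows. The part of row length in the choice of regions was not tested. The covering row was longer than the region in 360 of 364 regions of the cDC branch and in 734 of 764 regions of the pDC branch. Because the mature ratio is that of the whole covering row, a gain next to a region can place it in a branch. When the covering row had to be at most 2 times as long as the region, an alternative chosen after seeing the data, 96 regions remained for cDC alone, 269 for pDC alone and 33 for both. Several regions can share a row: the 1030 regions with a later pDC gain lay in 941 rows, and the 630 with a later cDC gain in 563 rows, with at most 4 in a row.

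The steepest regions of the cDC branch are the 6 whose smaller step was largest, among those where the libraries of both steps did not overlap. The chromosome 17 region from 34398151 to 34398450 showed 124 and 80 in CDP against 24 and 0 in MPP, which is 7.92 times as much. Its covering row, from 34393201 to 34408400, carried 30037 and 41869 in cDC against 3281 and 2366 in CDP, which is 12.7 times as much. In the CDP and pDC list the covering row from 34397751 to 34401850 carried 1972 and 4012 in pDC against 1625 and 1441 in CDP, and their ratio was 1.95. That ratio lies just under the 2 that would have placed the region in the shared branch. A second region on chromosome 17, from 34441351 to 34443800, carried 1038 and 1275 in CDP against 385 and 70 in MPP, and its covering row reached 16654 and 25754 in cDC against 1770 and 1945 in CDP. The ratios were 5.07 and 11.4, and pDC were 1.72 times CDP in the covering row of the third list.

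Of the other steep regions of the cDC branch, those on chromosomes 13, 16 and 19 were lower in pDC than in CDP. The chromosome 13 region from 43884001 to 43886250 showed 1341 and 592 in CDP against 135 and 39 in MPP, which is 10.99 times as much. Its covering row reached 5303 and 12996 in cDC against 2484 and 1074 in CDP, which is 5.14 times as much. In the third list, 145 and 295 in pDC stood against 1233 and 468 in CDP, and their ratio was 0.26. Both cDC libraries thus lay above, and both pDC libraries below, the CDP libraries of their lists. The rows differ in bounds, from 43879901 to 43887100 with cDC and from 43884601 to 43886250 with pDC. The chromosome 19 region from 36131751 to 36132250 showed 147 and 266 in CDP against 50 and 0 in MPP. Its covering row reached 2246 and 2394 in cDC against 347 and 486 in CDP, and in the list with pDC the row reached 91 and 134 in pDC against 177 and 335 in CDP. The 2 cDC libraries lay close together here, unlike on chromosome 13. The chromosome 16 region from 10436751 to 10437100 showed 106 and 123 in CDP against 26 and 4 in MPP, with a later ratio of 4.84 for cDC and 0.56 for pDC. The region from 10436101 to 10436600 lay in the same row with cDC and had a ratio of CDP to MPP of 8.53. Its smaller step was thus the same 4.84, and this tie left it out of the steepest regions. The chromosome 15 region from 101053301 to 101053650 showed ratios of 5.97 for CDP to MPP, 4.85 for cDC to CDP and 1.99 for pDC to CDP, so it too lay at the edge of the shared branch.

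The 4 regions of the cDC branch whose covering rows had the highest cDC signal all lay on chromosome 17. The chromosome 17 region from 34432601 to 34434150 showed 923 and 756 in CDP against 266 and 98 in MPP, and its covering row from 34418151 to 34436650 carried 39109 and 56526 in cDC against 5983 and 4633 in CDP, which is 9.01 times as much. The regions from 34394951 to 34395400, from 34398151 to 34398450 and from 34398801 to 34400950 shared the row from 34393201 to 34408400, so that their later ratio of 12.7 is a single value. Their own ratios of CDP to MPP were 4.42, 7.92 and 4.04.

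The steepest regions of the pDC branch were short, with signals from 102 to 272 in CDP, and had close libraries in CDP and pDC. The chromosome 9 region from 92516551 to 92516850 showed 106 and 103 in CDP against 9 and 0 in MPP, which is 19.2 times as much. Its covering row reached 5076 and 4844 in pDC against 327 and 362 in CDP, which is 14.4 times as much. In the list with cDC, 43 and 62 in cDC stood against 201 and 165 in CDP, a ratio of 0.29. Both cDC libraries thus lay below, and both pDC libraries above, the CDP libraries of their lists. The rows differ in bounds, from 92516401 to 92516900 with cDC and from 92515601 to 92518200 with pDC. The chromosome 9 region from 72014051 to 72014800 showed the largest first step of these 6, carrying 248 and 272 in CDP against 14 and 0 in MPP, which is 32.6 times as much. Its covering row reached 4817 and 5272 in pDC against 491 and 531 in CDP, which is 9.85 times as much, and its cDC signals of 51 and 298 stood against 326 and 331 in CDP. The MPP means of the chromosome 9 regions from 92516551 and from 72014051 were 4.5 and 7. A mean under 10 was seen in 1.96% of the pDC branch. At such low values the ratio to MPP depends strongly on the 1 added to the means.

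Strong later steps were also listed on chromosomes 4, 10 and 13. The chromosome 10 region from 59631551 to 59631850 showed 108 and 102 in CDP against 2 and 15 in MPP, and 6211 and 6157 in pDC against 577 and 559 in CDP. Its cDC libraries of 96 and 200 were not both below those of CDP, 248 and 190. The chromosome 4 region from 135646151 to 135646550 showed 122 and 136 in CDP against 14 and 12 in MPP, and 6472 and 5881 in pDC against 636 and 718 in CDP. The chromosome 13 region from 41975751 to 41976100 showed 121 and 137 in CDP against 0 and 14 in MPP, and 6970 and 8340 in pDC against 1026 and 915 in CDP. Each of these later steps was between 7.88-fold and 10.9-fold. The chromosome 10 region from 38999851 to 39000250 showed 147 and 135 in CDP against 24 and 2 in MPP and was 8.92-fold higher in pDC than CDP, while its cDC libraries, 229 and 567, lay on both sides of the CDP values of 277 and 235.

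The pDC branch regions with the highest pDC signal lay in wide rows. This ranking, here and in the other branches, used the signal summed over the covering row, which by itself favours wide rows. The row on chromosome 7 from 63018151 to 63042650, carrying 37249 and 40985 in pDC against 1540 and 2350 in CDP, covered the region from 63040201 to 63040800. That region carried 321 and 498 in CDP against 85 and 89 in MPP. Its cDC to CDP ratio was 0.84, in a row only from 63040251 to 63040700. On chromosome 10, the row from 59738751 to 59753800 covered 3 of the named regions and carried 43934 and 46860 in pDC against 6672 and 9501 in CDP, which is 5.61 times as much. The region from 59739801 to 59740400 carried 423 and 467 in CDP against 196 and 200 in MPP. In the list with cDC its row, from 59740051 to 59741100, reached 1299 and 1662 in cDC against 1761 and 2046 in CDP. The regions from 59748851 and from 59749901 had ratios of CDP to MPP of 2.87 and 2.62.

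**Figure D3:**
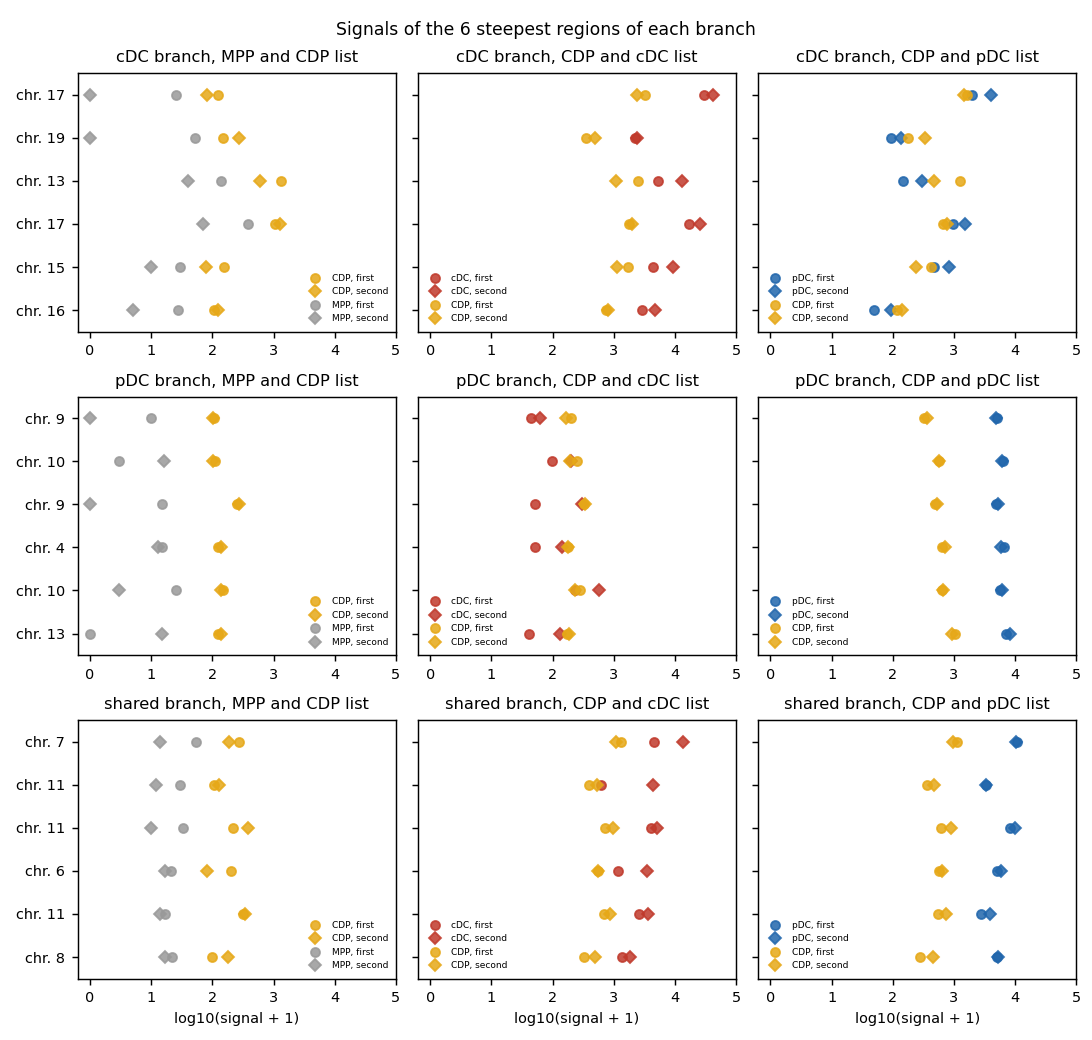
Signals on the log10(signal + 1) scale of each library in the 6 steepest regions of each branch, one row per region labelled by chromosome, with circles for first-listed and diamonds for second-listed libraries. CDP points lie right of MPP points in every row. In the pDC branch the pDC points of a region nearly coincide, and cDC points lie left of both CDP points in 4 of the 6 rows.

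In the shared branch both mature cell types lay above CDP at once, and the steepest regions reached at least 3.96 times CDP in each. The chromosome 7 region from 152177251 to 152177800 showed 272 and 185 in CDP against 53 and 13 in MPP, which is 6.75 times as much. Its covering rows reached 4553 and 13282 in cDC against 1300 and 1073 in CDP, and 10666 and 10437 in pDC against 1122 and 959 in CDP. The later ratios were 7.51 and 10.1, and the cDC libraries stood far apart. The chromosome 11 region from 45940751 to 45941500 showed 215 and 386 in CDP against 32 and 9 in MPP, which is 14.0 times as much, with later ratios of 5.38 for cDC and 12.0 for pDC. The chromosome 11 region from 45621051 to 45621950 showed 315 and 342 in CDP against 16 and 13 in MPP, which is 21.3 times as much. Its covering rows reached 2586 and 3601 in cDC against 692 and 850 in CDP, and 2784 and 3812 in pDC against 541 and 737 in CDP.

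The other steep regions of the shared branch had CDP to MPP ratios of 5.73, 7.45 and 7.18, in the order given here. The chromosome 11 region from 34326851 to 34327200 showed 105 and 128 in CDP against 28 and 11 in MPP, and its cDC ratio of 5.41 rested on libraries of 621 and 4440, against 397 and 537 in CDP. The chromosome 6 region from 87097251 to 87097650 showed 199 and 82 in CDP against 20 and 16 in MPP, with later ratios of 4.33 for cDC and 8.98 for pDC. The chromosome 8 region from 91438251 to 91438650 showed 99 and 179 in CDP against 21 and 16 in MPP, with later ratios of 3.96 for cDC and 14.1 for pDC.

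Among the shared regions with the highest mature signal was chromosome 8 from 123259801 to 123261750, carrying 750 and 1244 in CDP against 580 and 248 in MPP, which is 2.41 times as much. Its row in the list with cDC, from 123259401 to 123268800, carried 12423 and 11558 in cDC against 2057 and 3289 in CDP. The row in the list with pDC was wider, from 123258751 to 123287850. On chromosome 17, the regions from 5800251 to 5801150 and from 5804051 to 5805300 shared their rows in both later lists. Their CDP signals were 417 and 407, and 634 and 641, against 141 and 51, and 108 and 133, in MPP. The shared rows were 2.28-fold higher in cDC and 4.65-fold higher in pDC than in CDP.

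Regions of continued gain less than 20 kb apart were joined into runs. Of the 1394, 930 were the only one of their run, 346 lay in pairs, and 118 lay in runs of 3 or more. The same was not worked out for all autosomal rows, so nothing is read from these counts. The run with most regions was on chromosome 13 from 113155651 to 113217550, where 8 regions lay within 61.9 kb, 6 of the cDC branch, 1 of the pDC branch and 1 shared. All 9 rows of the first list in this span were higher in CDP than MPP. Summed over the 8 regions the signals were 3120 and 3754 in CDP against 1079 and 566 in MPP, which is 4.18 times as much. Over the 5 covering rows of the list with cDC they were 11582 and 22622 in cDC against 6210 and 7252 in CDP, and over the 7 rows of the list with pDC they were 5242 and 7005 in pDC against 3205 and 3479 in CDP.

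The regions of this run differed in which mature cell type lay above CDP. The regions from 113185401 to 113186800 and from 113187101 to 113188150 lay in a row that was 4.11-fold higher in cDC than CDP, and in rows that were 1.24 and 0.43 times CDP in pDC. At the far end of the run the region from 113216501 to 113217550 was 3.99-fold higher in pDC than CDP, carrying 2199 and 2515 in pDC against 678 and 502 in CDP, and its row with cDC carried 433 and 729 in cDC against 949 and 1030 in CDP. Between them, the region from 113203351 to 113204550 was shared, with ratios of 2.02 for cDC and 2.24 for pDC.

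The second run held 6 regions on chromosome 16 from 10418351 to 10442200, all rows of that span in the first list. Its first region, from 10418351 to 10419250, was shared, carrying 2229 and 2547 in pDC against 446 and 678 in CDP and a cDC to CDP ratio of 2.90. The other 5 belonged to the cDC branch and had cDC to CDP ratios of 2.30 to 4.84 and pDC to CDP ratios of 0.23 to 0.79. Their ratios of CDP to MPP ran from 2.02 to 9.47, the highest in the region from 10441001 to 10442200, carrying 435 and 832 in CDP against 56 and 76 in MPP.

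The third run held 5 regions on chromosome 17 from 34423551 to 34443800, where the sums were 4549 and 4187 in CDP against 1258 and 422 in MPP, which is 5.20 times as much. Their 2 covering rows with cDC carried 55763 and 82280 in cDC against 7753 and 6578 in CDP. Over 4 rows with pDC the sums were 7611 and 13002 in pDC against 5350 and 4338 in CDP. The pDC to CDP ratios of the 5 regions lay between 1.72 and 2.57, so that 3 counted as shared and 2 as cDC branch on either side of the threshold.

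**Figure D4:**
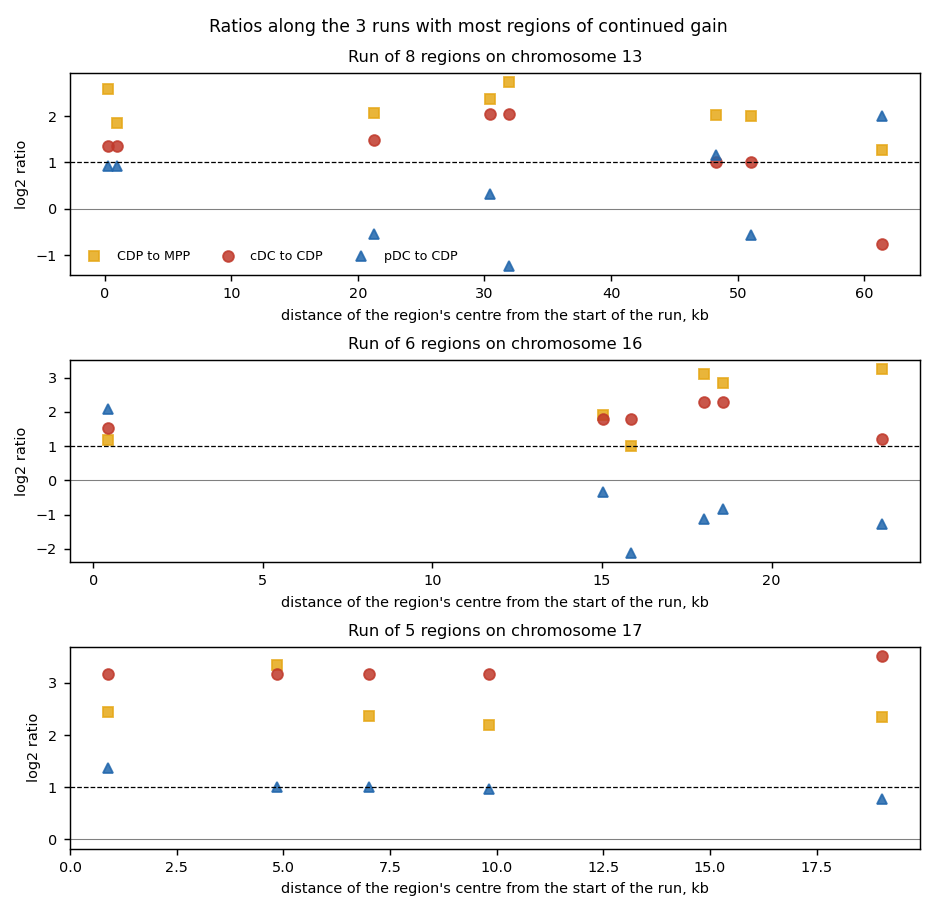
Log2 ratios of CDP to MPP, cDC to CDP and pDC to CDP for each region of the 3 runs, by distance of its centre from the start of the run in kb. The dashed line marks a ratio of 2. In the chromosome 16 run the pDC points lie below 0 in 5 of 6 regions, while in the chromosome 17 run all 5 lie between 0.78 and 1.36.

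The regions were spread over all autosomes. They made up 2.34% of all autosomal rows of the first list, and between 1.73% of those of chromosome 19 and 3.50% of those of chromosome 16. Chromosome 2 held the most, with 113. A length of at least 2000 bp was reached by 6.59% of regions of the cDC branch, 10.7% of the pDC branch and 4.51% of the shared branch, against 6.86% of all autosomal rows. Of the regions gained and not taken, 13.2% reached it, more than in any branch. Another region of continued gain lay less than 20 kb away for 35.7% of the cDC branch, 31.5% of the pDC branch and 35.0% of the shared branch. No such share was worked out for all autosomal rows.

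The direct comparison of cDC and pDC, whose list was not used by the rule but whose libraries were, covered all 1394 regions. The comparison was tested with limma on log2(signal + 1) over all 66319 rows of the list. Benjamini-Hochberg adjustment was made over these rows, with a threshold of 0.05. In every branch, regions lying in the same row of this list carry the same call and were each counted. The shares of all rows count a row only once, and the number of distinct rows behind the regions is not given here. The shared branch was chosen by cDC and pDC gains over CDP in these same libraries, so its calls and adjusted p-values are a description. In the shared branch 15 regions were higher in cDC and 98 higher in pDC, which is 5.64% and 36.8% of 266, against 9.32% and 23.3% of all rows. The median log2 difference of cDC minus pDC was -0.69 in the shared branch and -0.22 over all rows. Under equal totals the medians became -0.21 and 0.26, and the calls were 35 higher in cDC and 91 higher in pDC in the shared branch, with 18385 and 14192 of the 66319 rows called over the whole list. The shared median minus that of all rows was -0.48 as deposited, and ran from -0.63 to -0.39 when single libraries were left out. The calls in the shared branch changed with single libraries, to 2 higher in cDC and 37 higher in pDC without the first-listed pDC library, where 3188 and 11343 of all rows were called. They were 5 and 28 without the second-listed pDC library, with 4413 and 9720 of all rows. Without the first-listed cDC library 25 were higher in cDC and 85 in pDC, with 6585 and 13083 of all rows, and without the second-listed cDC library 11 and 156, with 3782 and 19956.

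Within the shared branch the named regions differed in this comparison in the size of the difference and in whether it passed the threshold. They were named by ratios from the same libraries, so their p-values are a description too. By limma, chromosome 8 from 91438251 had a log2 difference of cDC minus pDC of -1.83 ± 0.28 (SE, adjusted p = 0.0014), where 1474 and 1957 in cDC stood against 5893 and 6164 in pDC. Chromosome 11 from 45940751 had -1.22 ± 0.27 (limma, adjusted p = 0.0088), and chromosome 6 from 87097251 had -1.83 ± 0.43 (limma, adjusted p = 0.011). Chromosome 11 from 45621051 had -0.61 ± 0.31 (limma, adjusted p = 0.17), where 1949 and 2603 in cDC stood against 2882 and 4118 in pDC, and this difference did not pass the threshold. Chromosome 7 from 152177251 had -0.10 ± 0.46 (limma, adjusted p = 0.87), in a covering row of only 350 bp. Chromosome 11 from 34326851 had -1.35 ± 0.72 (limma, adjusted p = 0.20), with cDC libraries of 584 and 4093. Chromosome 8 from 123259801 had -1.65 ± 0.26 (limma, adjusted p = 0.0018). Chromosome 17 from 5804051 had -1.17 ± 0.34 (limma, adjusted p = 0.027). The region from 5800251 there had -1.03 ± 0.33 (limma, adjusted p = 0.040). The calls of these regions of chromosomes 8 and 17 with single libraries left out are not given here. The call of chromosome 11 from 45940751 was lost without either pDC library, with adjusted p-values of 0.21 and 0.31, and that of chromosome 6 without the second-listed pDC library, with 0.051.

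In the other branches the direction of this comparison follows in part from the rule. There, as in the shared branch, the rule used the same libraries, and the counts are a description. In the cDC branch 263 of 364 regions were higher in cDC and 1 was higher in pDC, against 9.32% and 23.3% of all rows, with a median log2 difference of cDC minus pDC of 1.67. Without the first-listed pDC library 159 were called higher in cDC, with 3188 of all rows. Of the pDC branch, 2 of 764 were higher in cDC and 635 higher in pDC, against the same shares of all rows, with a median of -1.93. Without the second-listed pDC library 414 were called higher in pDC, with 9720 of all rows. The test did not call 100 regions of the cDC branch (27.5%) and 127 of the pDC branch (16.6%). Of all rows it did not call those outside the 9.32% higher in cDC and the 23.3% higher in pDC.

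**Figure D5:**
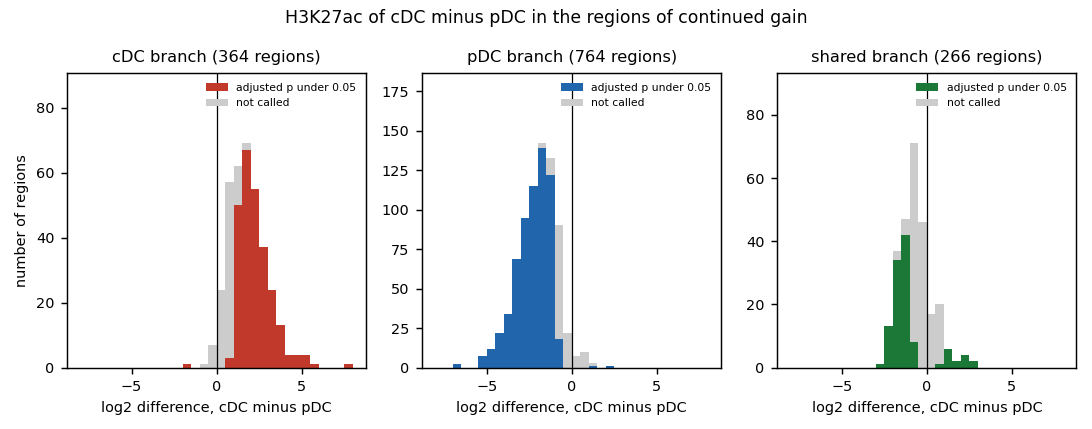
Histograms of the limma log2 difference of cDC minus pDC for the regions of each branch, coloured where the adjusted p was under 0.05 and grey elsewhere. The cDC branch lies mainly right of 0, the pDC branch mainly left of it, and the shared branch has a median of -0.69.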

How the data were processed

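Per the submitters' processing notes, reads were aligned with BWA 0.6.1 to mm9. THOR, which finds peaks that differ between conditions, is named in the title of the series. In the authors' deposited lists, a row gives the bounds of a region, the signal of each of 4 libraries (scaled whole numbers, another unit than read counts) and −log10 of a p-value, and the scaling is not given in the sources used here. Pairs of values were assigned by the sequence in which a list's name gives the cell types. On regions with identical bounds in 2 lists and signals of at least 100, the 10 pairs with the same label had an SD of the log2 ratio of at most 0.052, and the other 86 pairs at least 0.40. The labels do not number these values. The members, lists and rules were chosen with earlier results of these data known.

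Group means plus a pseudocount of 1 gave the ratios. Rows of a list do not overlap, and ties in overlap went to the lower start. Named regions are, per branch and among regions with separate libraries at each step, the 6 with the largest smallest step and the 4 with the highest mature signal (the lower of both for the shared branch), and the 3 runs with most regions. limma 3.58.1 (R 4.3.3, trend) was run on all rows of the cDC and pDC list and also on simulated data. The simulated libraries had equal noise and no shift between libraries. In the cDC and pDC list the median SD over the 1394 regions was 0.47 for cDC and 0.18 for pDC (log2). The simulation therefore does not test the calls under such unequal libraries. These rows come from the authors' list of regions that differ, so they are not a sample of the genome. The deposited −log10 p can be low, as with 1.02 in the row over chromosome 7 from 152177251. With 2 libraries against 2, an exact two-sided permutation p is at least 0.333. Coordinates are 1-based. Other steps used pandas 2.3.3 and numpy 2.4.6 under Python 3.11.15, and figures matplotlib 3.10.9. Input and RNA samples, gene lists and motifs, which need mm9, were not analysed here.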

Additional observations from a re-analysis of the deposited data

Results flagged for a closer look

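Named regions of a single branch are listed here where both libraries of the other mature cell type lay below both CDP libraries. This is opposite to the branch but not rare. Over all autosomal rows both pDC libraries lay below both CDP libraries in 38.0%, and both cDC libraries in 36.2%. Nothing is read from the number of regions listed. The rule chose the branch, and the difference between the courses was not tested beyond the comparison of cDC and pDC. The covering rows of the lists with cDC and with pDC differ in bounds, so the courses can be those of different stretches. In the cDC branch the ratio of pDC to CDP was 0.26 on chromosome 13 from 43884001, 0.44 on chromosome 19 from 36131751 and 0.56 on chromosome 16 from 10436751. In the pDC branch the ratio of cDC to CDP was 0.29 on chromosome 9 from 92516551 and 0.53 on chromosome 9 from 72014051. It was 0.56 on chromosome 4 from 135646151, 0.48 on chromosome 13 from 41975751 and 0.78 on chromosome 10 from 59739801.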

How the results depend on the processing

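No paired analysis was possible because the listed values carry no replicate number. With a ratio of at least 1.5 the rule gave 3413 regions, of which 963 were in the cDC branch, 1486 in the pDC branch and 964 shared. With a ratio of at least 3 it gave 373, of which 75, 259 and 39. With a mean CDP of at least 200 the cDC branch held 240 and the shared branch 173. With equal totals the cDC branch held 563 regions, and 1127 of the 1394 regions stayed in their branch. With a covering row at most 2 times as long as the region, added after seeing the data, the counts were 398 in all, 96, 269 and 33. With the regions of each branch held fixed, equal totals moved the median pDC to CDP ratio (log2) to 1.39 in the pDC branch. In the shared branch that median moved to 1.63. The calls of cDC against pDC higher in cDC moved to 18385 over all rows and 35 in the shared branch. Pseudocounts of 0.5 and 5, separate libraries, a deposited −log10 p of at least 10, a minimum of 50 for mean CDP, a length of at least 500 bp and other measures of overlap kept each branch within 1.5 times its size. The filter on a mean signal of 20 left out no row.

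Leaving out each library gave 1120 to 1785 regions in all, 189 to 577 in the cDC branch, 568 to 1012 in the pDC branch and 132 to 410 shared. For CDP to MPP the median log2 ratio ran from 1.47 to 2.18 in the cDC branch, from 1.31 to 1.86 in the pDC branch and from 1.41 to 2.14 in the shared branch. That of pDC to CDP ran from 1.55 to 1.90 in the pDC branch and from 1.70 to 2.14 in the shared branch. That of cDC to CDP ran from 1.00 to 1.56 in the cDC branch and from 0.97 to 1.66 in the shared branch. Calls of cDC against pDC ran from 3188 to 6585 higher in cDC and from 9720 to 19956 higher in pDC over all rows, and from 2 to 25 and from 28 to 156 in the shared branch. The lone library of a cell type was then assumed to vary like the other group. The cause of these shifts was not tested. The read depth is unknown, so no limit of detection is given.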
